A study of Mus musculus with 18 samples.

Results

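The genes described here encode proteins that copy the DNA and divide the cell. They are a list of 38 genes of DNA replication and mitosis chosen by name, and 37 of them have a probe set named for them alone, among 18193 such genes on the array. Ccnb1 (cyclin B1) has no such set and is not reported. Where a gene has several such sets, the one of highest mean level stands for it. By role, the list holds 5 G1 cyclins and transcription factors, 8 genes of origin licensing and the replicative helicase, 4 of the replication fork and nucleotide supply, 7 cyclins and kinases acting from S phase to mitosis, 5 of the spindle checkpoint and anaphase, and 9 of the spindle, kinetochore, chromosomes and midbody.

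Male C57BL6 mice, an inbred strain, were injected intraperitoneally with saline or with D-galactosamine (GalN) at 4.5 g per kg. GalN is an amino sugar known to damage hepatocytes. Sham mice were killed 24 h after saline and the others 24 h or 48 h after GalN, so the 48 h group has no sham of its own time, and both GalN times are compared with the same sham arrays. Liver and kidney were each profiled on Affymetrix expression arrays, with 3 arrays (A, B and C) in each of the 6 groups. No genetic change is given in the labels, the age is not given, and the RNA came from whole organs perfused in place. A passage of the protocol can be read as pooling the RNA of 3 mice, so p-values measure only the spread between these arrays, which may be technical.

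Most hepatocytes of an adult liver rest outside the cell cycle and can re-enter it after loss of tissue. Cells that enter the cycle make cyclins of the D and E type, then the proteins that load the MCM helicase onto replication origins in G1, then the enzymes of DNA synthesis in S phase. Cyclin B, Cdk1 and the spindle genes are made mainly in G2 and mitosis. Few tubule cells of an adult kidney divide, and they too can re-enter the cycle after injury.

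Values are log2 gcRMA values as deposited, on which a step of 1 is a doubling. The lowest value in the table is 2.213, called the floor here. Of the 666 readings of the 37 genes, 305 lay less than 1 above the floor and 277 recurred to the last digit in another array. Both kinds were treated as background, and folds whose lower group holds such a reading are given as "at least". In liver, 15 of the 37 genes lay less than 1 above the floor in all 9 arrays: Cdc6, Tyms, Ccna2, Ccnb2, Aurka, Aurkb, Plk1, Bub1, Bub1b, Ttk, Cenpe, Kif20a, Nusap1, Prc1 and Tpx2. In kidney 4 did: Cdc6, Tyms, Bub1b and Ttk. Testing in a tissue required a value above the array median in at least 3 of the 9 arrays, which 26 of the 37 genes met in liver and 30 in kidney. In liver 4 of these 26 still lay less than 1 above the floor in all 9 arrays: Ccnb2, Aurka, Cenpe and Tpx2. In kidney 0 of the 30 did. Differences are given ± SE from limma with two-sided Benjamini-Hochberg adjusted p-values over all genes tested, and those under 0.05 are called. Group means are given ± SD with n = 3.

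**Figure D1:**
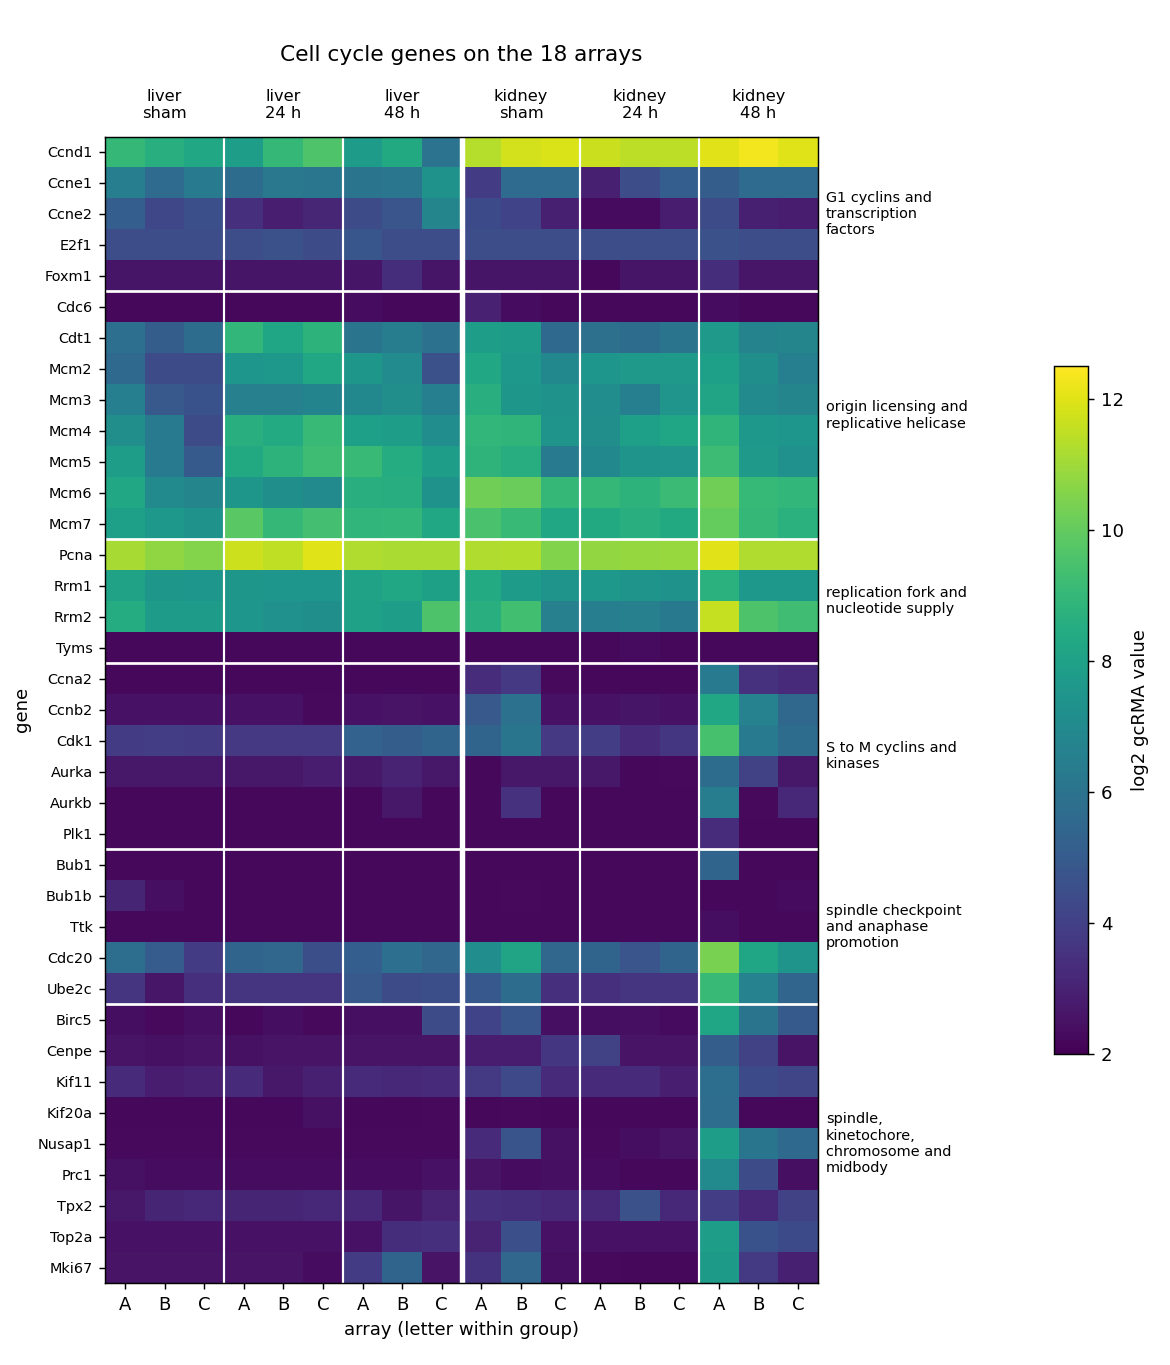
Log2 gcRMA values of the 37 measured genes (rows, by role) on each of the 18 arrays (columns, 3 per group), with dark colour near the floor and yellow at the highest values. Cdt1 and most Mcm genes are brighter in liver at 24 h than in sham, and genes of mitosis are brightest in array A of kidney at 48 h.

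The tissues matched their labels. Hepatocyte markers had a summed level of 18.27 to 18.54 (log2) in the liver arrays against 16.06 to 16.46 in kidney, where the hepatocyte gene Tdo2 was at the floor. Proximal tubule markers had a summed level of 16.92 to 17.22 in kidney against 9.15 to 10.13 in liver. Array medians ran from 2.36 to 2.43. The liver 48 h array C stood apart, with the lowest mean correlation to its group, 0.956, and the widest gap between the 3′ and 5′ actin control sets, 2.56. In whole organs, fewer cells of a type and less RNA per cell cannot be told apart.

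At 24 h after GalN, 5 genes of origin licensing and the MCM helicase were called higher in liver, together with Pcna. Of the 26 members tested, 6 rose and 0 fell, while 17.9% of all 12071 genes tested rose and 15% fell. Of the 7 licensing genes tested, 5 rose (Cdt1, Mcm2, Mcm4, Mcm5 and Mcm7), and of the 3 tested genes of the fork and nucleotide supply Pcna rose. None of the 5 G1 genes, 3 later cyclins and kinases, 2 anaphase genes or 6 spindle and chromosome genes tested was called. The median difference over the members tested was 0.01, against 0.00 over all genes tested. The count was 3 without array C of the 24 h livers, against 25.3% of all genes in both directions.

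Cdt1 loads the helicase onto origins and is destroyed once S phase begins. Its log2 values in the sham livers were 5.84, 5.11 and 5.72 in arrays A, B and C, against 8.96, 8.23 and 8.81 at 24 h. The 24 h arrays all lay well above the sham arrays, with means of 8.66 ± 0.383 and 5.56 ± 0.393. The difference was 3.11 ± 0.274, or 8.63-fold (adjusted p = 3.82e-04). A further probe set of Cdt1 above the floor differed by 2.07 in the same direction.

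Mcm2 to Mcm7 are the 6 subunits of the ring-shaped helicase that Cdt1 and Cdc6 load. Mcm2 read 5.61, 4.44 and 4.44 in sham, the last pair being background, and 7.54, 7.59 and 8.27 at 24 h, a rise of at least 7.84-fold (2.97 ± 0.762, adjusted p = 0.0225). Mcm4 read 7.20, 6.32 and 4.41 in sham and 8.61, 8.41 and 9.06 at 24 h (2.72 ± 0.661, 6.59-fold, adjusted p = 0.0183). In either gene the groups did not overlap, and the sham arrays were more spread than the 24 h arrays. Mcm5 read 7.87, 6.34 and 4.99 in sham livers and 8.38, 8.78 and 9.25 at 24 h (2.40 ± 0.698, 5.29-fold, adjusted p = 0.0358), the sham array A lying close under the lowest 24 h array. Mcm7 read 7.94, 7.59 and 7.39 in sham and 9.80, 9.0 and 9.36 at 24 h (1.75 ± 0.268, 3.36-fold, adjusted p = 0.00295). Further probe sets of Mcm2, Mcm4, Mcm5 and Mcm7 moved the same way, by 0.78 to 1.94. For Mcm4, Mcm5 and Mcm7 the further sets gave differences of at most 1.04, well under those of the sets used here. The call of Mcm2 was lost without any 1 of sham arrays B and C or the 24 h arrays, that of Mcm5 without the same arrays or 48 h array B, and that of Mcm4 without 24 h array C, with adjusted p-values of 0.0505 to 0.108. In all, the Mcm5 call was lost in 10 of 21 alternatives. These included no filter, the array letter as a block, the mean of all probe sets and only the 6 arrays compared.

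The other MCM subunits were not called. Mcm3 read 6.54, 4.92 and 4.64 in sham and 6.56, 6.57 and 6.73 at 24 h, a difference of 1.25 ± 0.473 (adjusted p = 0.0835), and the groups met at about the value of sham array A. Mcm6 read 8.30, 7.0 and 6.78 in sham and 7.57, 7.24 and 7.02 at 24 h, with overlapping groups and a difference of -0.08 (adjusted p = 0.955). Array A was the highest of the sham livers for each of the 6 subunits. Cdc6, the other loader, was at the floor in all 9 liver arrays and was not tested.

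Pcna, the sliding clamp that holds DNA polymerases on the template, was already high in sham livers at 11.13, 10.75 and 10.57. It read 11.71, 11.51 and 11.99 at 24 h, above all sham arrays (0.92 ± 0.171, 1.89-fold, adjusted p = 0.00643). Rrm1 and Rrm2, the large and small subunits of ribonucleotide reductase, were not called at this time. Rrm2 read 8.52, 7.75 and 7.79 in sham and 7.53, 7.30 and 7.24 at 24 h, a difference of -0.66 (adjusted p = 0.321).

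**Figure D2:**
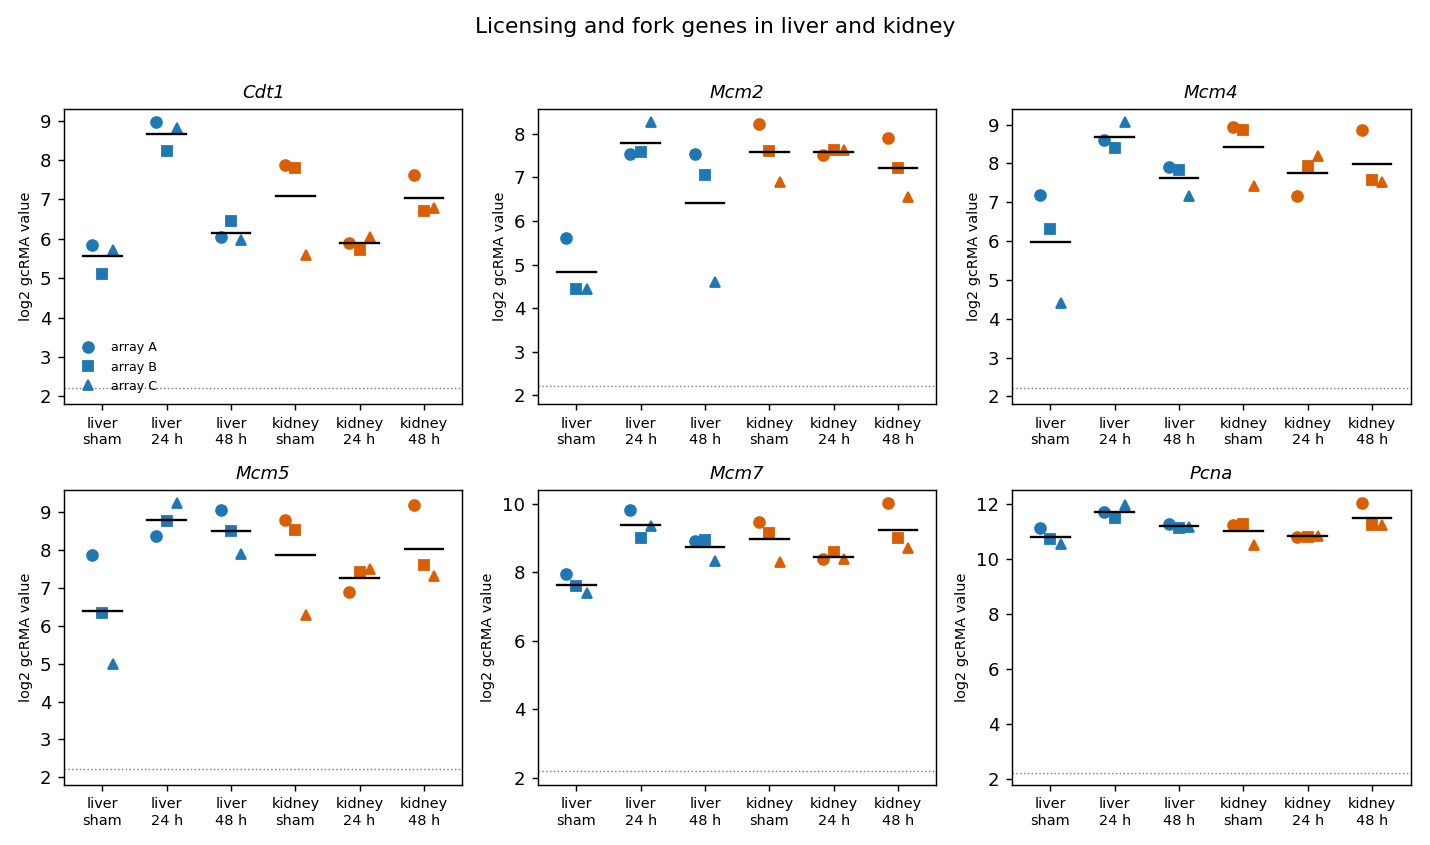
Log2 gcRMA values of Cdt1, Mcm2, Mcm4, Mcm5, Mcm7 and Pcna in the 6 groups, 1 point per array with the letter as marker, black lines for group means and a dotted line for the floor. In liver the 24 h arrays lie above the sham arrays for each of the 6 genes, while in kidney the sham and 24 h arrays overlap.

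The promoters of these genes are shown because E2F factors are known to drive licensing genes and the CHR element mitotic genes. In RefSeq windows of 300 bases (250 before to 50 after each annotated start, GRCm38.p6), 30 of the 38 genes had a window. The E2F words searched were TTTGGCGC, TTTCCCGC, TTTGCCGC and TTTCGCGC on both strands, and words on opposite strands may overlap. They occurred for 7 of the 30 members (23.3%) against 2.6% of all 27025 genes with a window. By role they occurred in 6 of the 7 licensing genes with a window (Cdc6, Cdt1, Mcm3, Mcm5, Mcm6 and Mcm7) and otherwise in Cdk1. Of these, Cdt1, Mcm5 and Mcm7 rose in liver at 24 h, and Mcm3, Mcm6 and Cdc6 were not called or not tested. Mcm2 and Pcna rose and hold none of these words in the window. Below are the 170 bases before the start, 5′ to 3′ on the gene's strand, with E2F, CHR and CCAAT words in capitals. Mcm5 lies at chr8:75109339-75109508, plus strand, and Mcm7 at chr5:138171884-138172053, minus strand.
Mcm5: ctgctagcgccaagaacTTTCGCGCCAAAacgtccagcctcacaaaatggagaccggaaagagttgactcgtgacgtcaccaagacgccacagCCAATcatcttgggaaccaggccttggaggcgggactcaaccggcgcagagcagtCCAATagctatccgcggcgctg
Mcm7: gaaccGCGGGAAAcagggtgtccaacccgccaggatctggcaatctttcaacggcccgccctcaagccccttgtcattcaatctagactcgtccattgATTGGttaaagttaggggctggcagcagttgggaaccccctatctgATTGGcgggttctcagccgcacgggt

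At 48 h Cdk1 and Ube2c were called in liver beside Mcm7. Against sham, 3 of the 26 members tested rose and 0 fell. Over all genes tested 6.24% rose and 3.94% fell. The median difference was 0.59 over the members and 0.03 over all genes tested. Birc5 passed the filter only with the 48 h arrays. The count was 5 without array C of the 48 h livers, against 13.3% of all genes in both directions. It was 2 without sham array B or C, 24 h array B or C, or 48 h array A or B, against 3.73% to 8.23%.

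Cdk1 is the kinase that drives entry into mitosis. Its values were 3.87, 3.91 and 3.82 in sham livers, 3.76, 3.76 and 3.74 at 24 h, all background readings, and 5.32, 5.09 and 5.39 at 48 h. The 48 h arrays formed a tight group above all the others, with a mean of 5.27 ± 0.154 against 3.86 ± 0.0476 in sham. The rise over sham was 2.64-fold (1.40 ± 0.0843, adjusted p = 0.00148), and that over 24 h at least 2.86-fold (1.52, adjusted p = 1.7e-04). Ube2c, the ubiquitin-conjugating enzyme of the anaphase-promoting complex, read 3.57, 2.64 and 3.41 in sham, 3.61, 3.64 and 3.57 at 24 h, and 4.94, 4.46 and 4.54 at 48 h. It rose at least 2.71-fold over sham (1.44 ± 0.246, adjusted p = 0.0155) and at least 2.05-fold over 24 h (1.04, adjusted p = 0.0191). Cdk1 was not called in a fit of all 18 arrays (adjusted p = 0.219 and 0.13), nor was Ube2c (0.185 and 0.291). Ube2c also missed without 48 h array A (0.0506 against sham, 0.0597 against 24 h), and against 24 h without any 1 of the 24 h arrays.

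Mcm7 read 8.91, 8.94 and 8.32 at 48 h, above all sham arrays and below all 24 h arrays (1.08 ± 0.268 over sham, 2.12-fold, adjusted p = 0.0478). This call was lost in 14 of 21 alternatives, among them quantile normalization, median centring and leaving out sham array A, B or C, 24 h array B or C, or 48 h array A or B, with adjusted p-values up to 0.317. Mcm5 read 9.07, 8.51 and 7.90 at 48 h, Mcm4 7.91, 7.84 and 7.16, and Mcm2 7.54, 7.06 and 4.61. None of these was called against sham or between 24 h and 48 h, and array C was the lowest of the 48 h livers for each of them. Mcm6 read 8.61, 8.55 and 7.35, overlapping its sham values.

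Between 24 h and 48 h in liver, 4 members rose and 1 fell, against 14.6% and 13.1% of all genes tested. Besides Cdk1 and Ube2c, Ccne2 and Rrm1 rose. Ccne2 (cyclin E2, a partner of Cdk2 at the start of S phase) read 5.14, 4.24 and 4.58 in sham, 3.43, 2.90 and 3.13 at 24 h, and 4.42, 4.76 and 6.76 at 48 h. Its 24 h arrays were the lowest of the 3 groups, and the rise from 24 h was at least 4.47-fold (2.16 ± 0.592, adjusted p = 0.0328). Rrm1 read 7.58, 7.53 and 7.51 at 24 h and 8.07, 8.27 and 7.96 at 48 h, at least 1.48-fold higher (0.56 ± 0.164, adjusted p = 0.0413), with sham values of 8.04, 7.55 and 7.51. A further Rrm1 set went the other way, by -0.15. The calls of Ccne2 and Rrm1 were lost in 9 of 20 and 13 of 21 alternatives, with adjusted p-values up to 0.0937 and 0.856. The count of members called was 2 without any 1 of the 24 h arrays, against 21.5% to 23% of all genes. It was 3 without sham array B, against 23.4%.

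Cdt1 fell from 24 h to 48 h in liver by 2.52 ± 0.274 on the log2 scale, 5.73-fold lower (adjusted p = 0.00107). Its 48 h values of 6.04, 6.44 and 5.96 lay just above those of sham, 5.84 being the highest sham value. Cdt1 was the only member called higher at 24 h than in sham and lower at 48 h than at 24 h. Pcna read 11.27, 11.15 and 11.19 at 48 h, between sham and 24 h, and was not called.

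**Figure D3:**
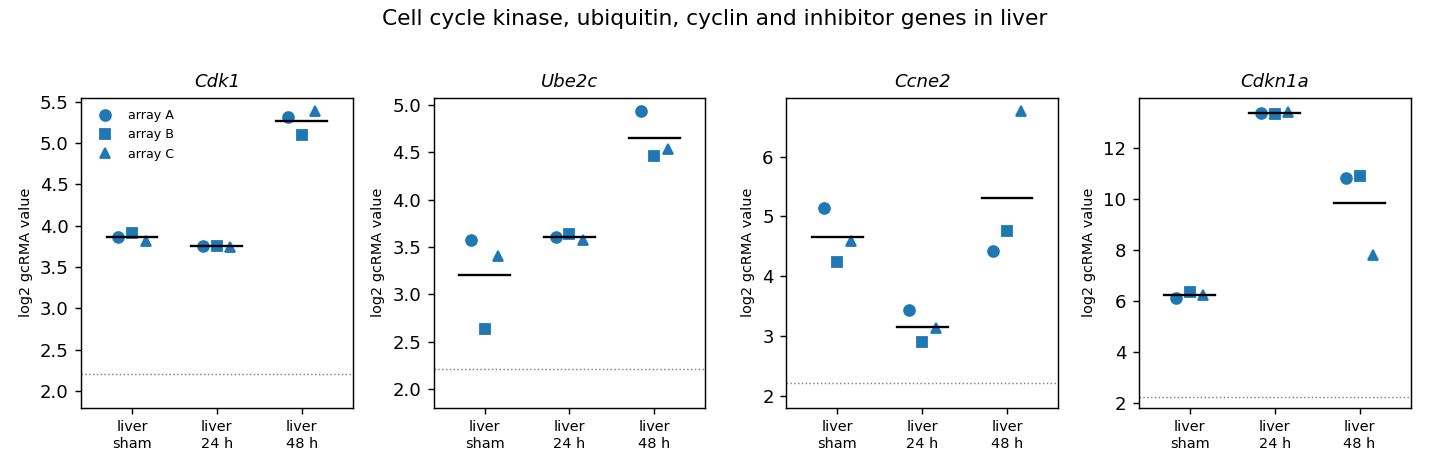
Log2 gcRMA values of Cdk1, Ube2c, Ccne2 and the cell cycle inhibitor Cdkn1a in liver at sham, 24 h and 48 h, 1 point per array, black lines for group means and a dotted line for the floor. Cdk1 and Ube2c are higher in every 48 h array, Ccne2 is lowest at 24 h, and Cdkn1a is near 13.4 at 24 h with array C of 48 h at 7.82.

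The later mitotic genes were at or near background in liver. Ccnb2 ran from 2.27 to 2.55 over the 9 arrays, and Nusap1 read 2.25 in each. They are a cyclin of mitosis and a spindle protein. Cdc20, which activates the anaphase-promoting complex, read 5.79, 5.07 and 3.83 in sham, 5.40, 5.48 and 4.53 at 24 h, and 5.14, 5.84 and 5.48 at 48 h, without a gap between groups. Single 48 h readings stood out: Mki67, the proliferation antigen Ki-67, read 3.81 and 5.39 in arrays A and B, and Birc5 (survivin) read 4.41 in array C. Ccnd1 (cyclin D1) read 8.98, 8.57 and 8.29 in sham, 7.89, 8.97 and 9.60 at 24 h, and 7.78, 8.36 and 5.99 at 48 h, with overlapping groups throughout.

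Markers of other cells moved with these liver groups. Of 7 macrophage markers 5 rose at 24 h and 3 at 48 h, with summed levels of 12.66 to 13.25 in sham, 14.20 to 14.34 at 24 h and 13.79 to 14.06 at 48 h. Of 6 endothelial markers 4 rose at 24 h and 1 at 48 h, from 9.26 to 9.37 in sham to 9.74 to 11.08 and 9.79 to 10.02. Among stellate cell markers Pdgfrb rose at 24 h, among hepatocyte markers Tdo2 fell at 24 h and Ttr and Serpina1c at 48 h, and the erythroid gene Alas2 fell at both times. Of the tested T and B cell, neutrophil and cholangiocyte markers 0 were called against sham. The part of these cells in the liver values was not tested.

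In kidney none of the members was called against sham at either time, and Nusap1 rose from 24 h to 48 h. Few genes of any kind were called in kidney, so the count of 0 lies near the share of all genes. At 24 h, 0 of 30 members tested rose and 0 fell, against 2.21% and 3.1% of all 12003 genes tested. At 48 h against sham the count was again 0 in each direction, against 1.29% higher and 1.4% lower. From 24 h to 48 h, 1 member rose and 0 fell, against 0.958% and 0.65%. At an unadjusted p under 0.05 the counts of members were 1, 7 and 13 of 30 in the 3 comparisons, against 23.8%, 19.4% and 18.3% of all genes. With all 18 arrays in 1 limma fit, 1 member was called at 48 h against sham and 9 from 24 h to 48 h, against 1.59% and 1.34% of all genes. That fit also pools the spread of the liver arrays, where some of these members, such as Nusap1 and Ccnb2, were near the floor with little spread. Its p-values for kidney thus rest partly on liver. Ccna2, Prc1 and Aurkb passed the filter only with the 48 h arrays, where they were highest, so counts for 48 h are also given without these 3.

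Nusap1 binds spindle microtubules near the chromosomes. It read 3.28, 4.73 and 2.49 in sham kidneys, 2.25, 2.39 and 2.55 at 24 h, and 7.89, 6.07 and 5.60 at 48 h. The 48 h arrays lay above all the others, with a mean of 6.52 ± 1.21 against 2.40 ± 0.146 at 24 h, when all readings were background. The rise from 24 h was at least 17.4-fold (4.13 ± 0.722, adjusted p = 0.0459), and against sham the difference was 3.02 (adjusted p = 0.0788). The call was lost when any 1 of the 9 kidney arrays was left out. It rests on 1 probe set, as the other set of Nusap1 read 2.21, the floor, in every array.

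Other genes of mitosis had the same order of groups without being called. Ccnb2 (cyclin B2, a partner of Cdk1) read 4.95, 5.96 and 2.52 in sham, 2.52, 2.58 and 2.51 at 24 h, and 8.26, 6.65 and 5.53 at 48 h. Its difference from 24 h to 48 h was 4.28 (adjusted p = 0.0807). Cdk1 read 5.40, 6.08 and 3.74 in sham, 3.89, 3.29 and 3.64 at 24 h, and 9.46, 6.29 and 5.71 at 48 h (3.55, adjusted p = 0.138). In both genes the 24 h arrays were low, sham array C was as low as they were, and 48 h array A was far above B and C.

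Cdc20 read 7.17, 8.11 and 5.48 in sham, 5.40, 4.77 and 5.40 at 24 h, and 10.39, 8.19 and 7.44 at 48 h (3.49 from 24 h to 48 h, adjusted p = 0.104). Ube2c read 4.91, 5.71 and 3.41, then 3.42, 3.61 and 3.61, then 9.09, 6.66 and 5.41 (3.51, adjusted p = 0.119). These are the activator and the ubiquitin-conjugating enzyme of one complex, which ends mitosis by degrading cyclin B. Kif11, the motor that separates spindle poles, read 3.77, 4.34 and 3.24 in sham, 3.24, 3.24 and 2.88 at 24 h, and 5.81, 4.36 and 4.21 at 48 h (1.67, adjusted p = 0.121), close to background in most arrays.

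Rrm2, whose level is known to rise in S phase, read 8.64, 9.30 and 6.57 in sham, 6.48, 6.56 and 6.24 at 24 h, and 11.58, 9.57 and 9.29 at 48 h. The groups at 24 h and 48 h were well apart (3.72, adjusted p = 0.0775), while sham spanned the gap between them. Rrm1, the other subunit, read 8.43, 7.82 and 7.45 in sham, 7.60, 7.45 and 7.34 at 24 h, and 8.70, 7.60 and 7.60 at 48 h. Birc5 and Top2a were singled out after their values were seen. Birc5, a subunit of the chromosomal passenger complex, read 4.13, 4.82 and 2.44 in sham, 2.41, 2.44 and 2.31 at 24 h, and 8.20, 6.04 and 4.95 at 48 h (4.01, adjusted p = 0.0775). Top2a, which untangles sister chromatids, read 3.05, 4.56 and 2.50 in sham, 2.50 in each 24 h array, and 7.91, 4.66 and 4.38 at 48 h (3.15, adjusted p = 0.155).

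**Figure D4:**
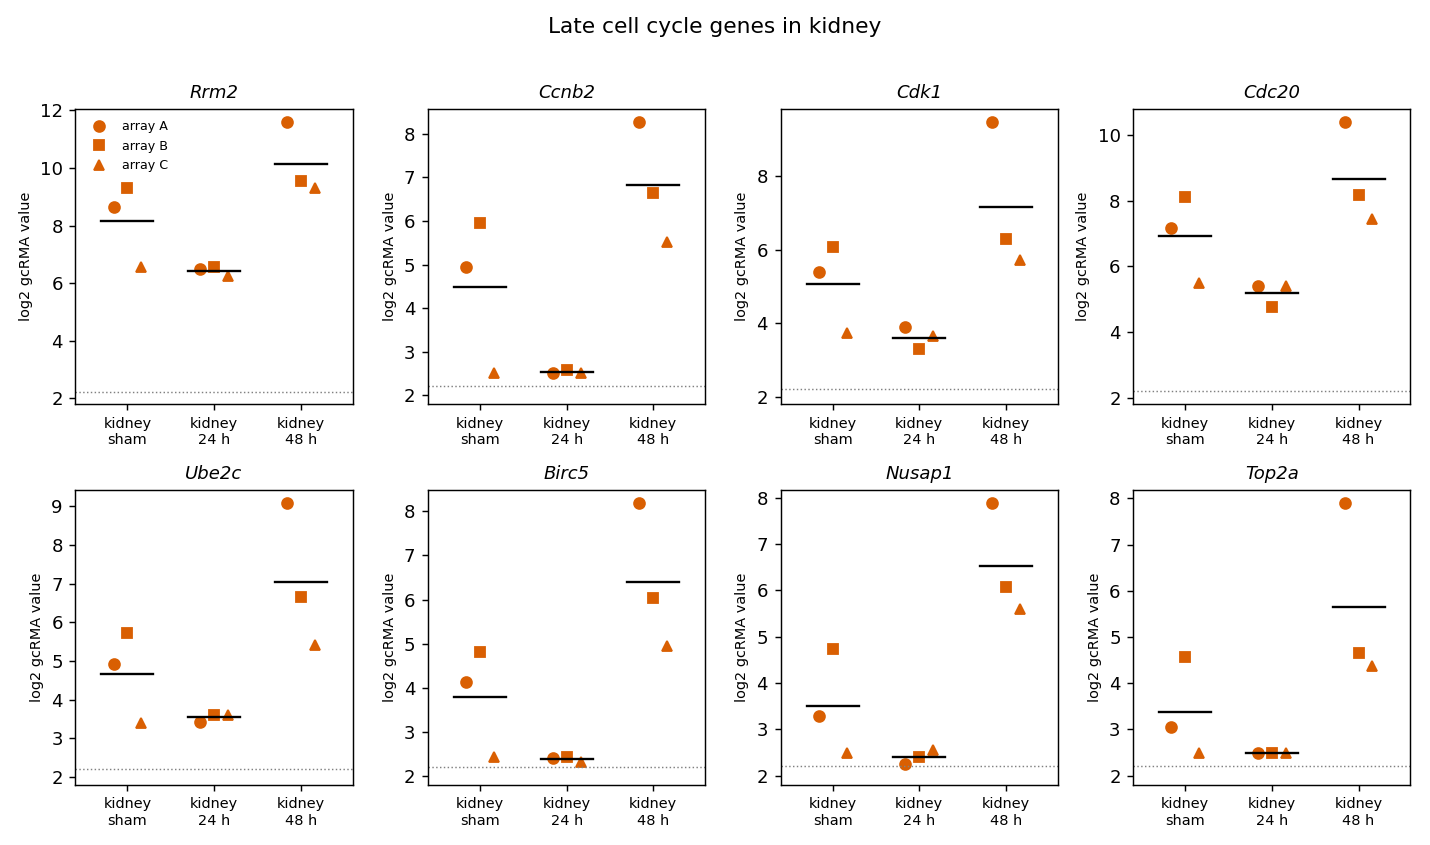
Log2 gcRMA values of Rrm2, Ccnb2, Cdk1, Cdc20, Ube2c, Birc5, Nusap1 and Top2a in kidney at sham, 24 h and 48 h, 1 point per array with the letter as marker, black lines for group means and a dotted line for the floor. Array A of 48 h is the highest point of every panel, the 24 h arrays are low and close together, and sham array C lies near them.

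Counted over the members tested, the median difference in kidney was -0.72 at 24 h, 0.66 at 48 h and 1.21 from 24 h to 48 h, against 0.00 over all genes in each. Without Ccna2, Prc1 and Aurkb the values at 48 h were 0.44 and 0.91. From 24 h to 48 h, the groups of 18 of the 30 members tested did not overlap and were higher at 48 h, against 10.7% of all genes, and this held for 15 of the 27 others when those 3 were left out. From sham to 48 h this held for 4 of the 30, against 11.5%. From sham to 24 h, the groups of 6 of the 30 did not overlap and were lower at 24 h, against 14.3%.

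The rank product, the test that the study text names, ranks genes by fold in each pair of arrays and listed more of the members in kidney than limma did. At 24 h it put 7 members lower (Ccne2, Rrm2, Ccnb2, Cdk1, Cdc20, Birc5 and Mki67), against 0.667% of all genes. At 48 h against sham it put 10 members higher, against 0.9%: Rrm2, Ccnb2, Cdk1, Aurka, Cdc20, Ube2c, Birc5, Nusap1, Prc1 and Top2a. From 24 h to 48 h it put 13 higher, against 0.708%, the same 10 with Ccna2, Kif11 and Mki67. Without the genes that passed the filter only with the 48 h arrays the counts were 9 and 11 of 27. The lists rested partly on single arrays. Without sham array A or without sham array B 0 members were lower at 24 h, and without sham array C 9 were. Without 48 h array A, 1 member was higher than sham and 8 were higher than at 24 h. In liver at 24 h the rank product put 4 members higher than sham (Cdt1, Mcm2, Mcm4 and Mcm5), against 2.4% of all genes. Mcm7 and Pcna, called there by limma, were not called by rank product (adjusted p = 0.161 and 0.587).

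Array A of 48 h and array C of sham stood apart in kidney for these genes. Of the 33 members above the floor in kidney, array A was the highest of the 48 h group for 30, and array C the lowest of sham for 23. Array A of 48 h was the highest of all 9 kidney arrays for 27 of the 37. Without it, the median difference of the members from 24 h to 48 h was 0.75, and 19 of 30 were apart and higher (14.1% of all genes). Without it, the median from sham to 48 h was 0.24. Without sham array C, the median from sham to 24 h was -1.09, and 22 of 30 were apart and lower (20.2% of all genes).

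None of the 7 licensing genes tested in kidney was called there, including the 5 that rose in liver at 24 h. Cdt1 read 7.86, 7.81 and 5.58 in sham, 5.89, 5.71 and 6.05 at 24 h, and 7.62, 6.70 and 6.78 at 48 h. Mcm4 read 8.95, 8.87 and 7.43 in sham, 7.17, 7.93 and 8.19 at 24 h, and 8.87, 7.58 and 7.52 at 48 h. In both genes the sham arrays A and B lay above most 24 h arrays and sham array C among or below them. Mcm5 followed the same order with 8.81, 8.52 and 6.29, then 6.91, 7.43 and 7.49, then 9.19, 7.62 and 7.32. Mcm2 had overlapping groups, at 8.24, 7.61 and 6.89 in sham, 7.50, 7.63 and 7.63 at 24 h, and 7.91, 7.22 and 6.55 at 48 h.

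Mcm3 read 8.61, 7.55 and 7.36 in sham kidneys, 7.15, 6.54 and 7.49 at 24 h, and 8.14, 6.99 and 6.79 at 48 h. Mcm6 read 10.21, 10.08 and 8.99, then 8.98, 8.77 and 9.15, then 10.23, 9.02 and 8.95. Mcm7 read 9.48, 9.14 and 8.31, then 8.40, 8.57 and 8.37, then 10.02, 8.99 and 8.70. Within sham, and again within 48 h, each of these was highest in array A and lowest in array C. Pcna read 11.24, 11.28 and 10.51 in sham, 10.81, 10.82 and 10.86 at 24 h, and 12.04, 11.23 and 11.26 at 48 h. Ccnd1 was high in all kidney arrays, from 11.32 to 12.30, and read 11.64, 11.47 and 11.44 at 24 h and 12.04, 12.30 and 12 at 48 h (0.60, adjusted p = 0.119). Ccne2 read 4.36, 4.12 and 2.92 in sham, 2.32, 2.29 and 2.81 at 24 h, and 4.45, 2.90 and 2.81 at 48 h, mostly background.

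Of the members not given array by array, Bub1, Kif20a and Plk1 were above background in kidney only in array A of 48 h, at 5.40, 5.73 and 3.33. These are a spindle checkpoint kinase, a motor of cytokinesis and the polo kinase of mitosis. Prc1, which bundles the central spindle, read 7.04, 4.41 and 2.43 at 48 h, and Mki67 read 7.73, 3.79 and 2.93. Ccna2 (cyclin A2) read 6.34, 3.50 and 3.27 at 48 h and 2.21 in each 24 h array. Aurka and Aurkb, the Aurora kinases, read 5.72, 4.03 and 2.69 and 6.43, 2.29 and 3.21 at 48 h. All of these were highest in the same array. Bub1, Kif20a and Plk1 did not pass the filter in kidney and were not tested, and none of the others was called.

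The promoters of the kidney genes are shown for the CHR word TTTGAA, searched on both strands. It occurred for 13 of the 30 members with a window (43.3%) against 20.2% of all genes, and CCAAT for 23 (76.7%) against 41.1%. By role, the CHR word was in 4 of the 5 later cyclins and kinases with a window (Ccnb2, Cdk1, Aurka and Plk1), 4 of the 5 anaphase genes (Bub1b, Ttk, Cdc20 and Ube2c) and 4 of 7 spindle genes (Kif11, Prc1, Top2a and Mki67). It was otherwise in Mcm2, and in none of the 4 fork genes or 2 G1 genes. Nusap1, the member called in kidney, holds none of the words in its window. The 170 bases before the start follow, printed as above with E2F, CHR and CCAAT words in capitals. Cdk1 lies at chr10:69352913-69353082, minus strand, Cdc20 at chr4:118437344-118437513, minus strand, Ube2c at chr2:164769759-164769928, plus strand, Top2a at chr11:99024190-99024359, minus strand, and Nusap1 at chr2:119618128-119618297, plus strand.
Cdk1: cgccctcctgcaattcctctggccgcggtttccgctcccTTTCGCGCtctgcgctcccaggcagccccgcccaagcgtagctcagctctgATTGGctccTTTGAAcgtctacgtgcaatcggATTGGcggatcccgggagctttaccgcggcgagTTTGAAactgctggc
Cdc20: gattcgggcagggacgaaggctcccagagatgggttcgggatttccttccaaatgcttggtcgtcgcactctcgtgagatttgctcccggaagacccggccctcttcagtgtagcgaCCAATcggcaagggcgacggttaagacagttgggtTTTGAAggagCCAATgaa
Ube2c: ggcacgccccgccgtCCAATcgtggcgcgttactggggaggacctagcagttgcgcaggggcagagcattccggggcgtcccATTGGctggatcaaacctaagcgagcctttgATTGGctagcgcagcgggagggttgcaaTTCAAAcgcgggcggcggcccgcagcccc
Top2a: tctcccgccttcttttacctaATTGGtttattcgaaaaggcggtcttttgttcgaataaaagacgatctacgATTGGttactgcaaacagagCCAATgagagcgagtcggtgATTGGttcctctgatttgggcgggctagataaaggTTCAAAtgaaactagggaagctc
Nusap1: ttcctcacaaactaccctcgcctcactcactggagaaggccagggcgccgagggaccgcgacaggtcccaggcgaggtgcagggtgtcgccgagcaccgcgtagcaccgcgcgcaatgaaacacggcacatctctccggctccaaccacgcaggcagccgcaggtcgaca

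No marker of immune cells was called in kidney. Of the T and B cell markers 4 of 6 (Cd3e, Cd3d, Ms4a1 and Cd79a) and of the neutrophil markers 4 of 5 lay at the floor in every kidney group, with summed levels of 6.35 to 6.61 and 5.07 to 5.19. The macrophage sum ran from 10.76 to 11.46 over the 9 arrays, and 0 markers of these 3 lists were called. Of other lists, the duct gene Krt7 rose at 24 h, and among tubule markers Cubn rose and Slc22a6 fell at 48 h. Erythroid markers summed to 11.75 to 12.80 in sham, 11.26 to 11.62 at 24 h and 10.36 to 11.71 at 48 h, and their part in the result was not tested.

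The 24 h response differed between the tissues for the licensing genes. In the fit of all 18 arrays, the kidney response was lower than that of liver for 7 of the 30 members tested and higher for 0, against 16.5% and 13.8% of all 12467 genes tested. Of the 7 licensing genes tested 6 were lower (Cdt1, Mcm2, Mcm3, Mcm4, Mcm5 and Mcm7), and Pcna made the other. The difference was lost for Mcm5 in 14 of 27 alternatives and for Mcm3 in 10 of 27, with adjusted p-values up to 0.108 and 0.097. A further Mcm3 set above the floor moved alike in both tissues, by 0.18 in liver and 0.20 in kidney. The count was 3 without liver 24 h array C or kidney sham array A, against 27.4% and 26.5% of all genes. It was 4 without liver sham array B or C, against 26.4% and 28.7%. For Cdt1 the kidney response was lower by 4.31 ± 0.683 on the log2 scale (adjusted p = 3.46e-04), for Mcm4 the difference was -3.37 ± 0.878 (adjusted p = 0.00993), and for Mcm7 it was -2.27 ± 0.494 (adjusted p = 0.00317). Mcm6 did not pass, at -0.72 (adjusted p = 0.468). Of 26 members tested in both tissues, 13 had a difference above 0 in liver and below 0 in kidney. At 48 h, 1 of 30 members, Nusap1, had a higher response in kidney (3.02 ± 0.737, adjusted p = 0.0157, with liver values all at 2.25) and 0 a lower one, against 4.68% and 8.41% of all genes. That count was 2 or 3 without any 1 of 6 arrays: liver sham A, liver 48 h B or C, kidney sham C, and kidney 48 h A or C. The shares of all genes there were 9.46% to 16.8%. The Nusap1 difference rests on the kidney arrays alone, where it was not called at 48 h against sham. The fit of 18 arrays pools the spread of both tissues, and the liver readings of Nusap1 had almost none. Its SE there thus understates the spread between kidney arrays.

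**Figure D5:**
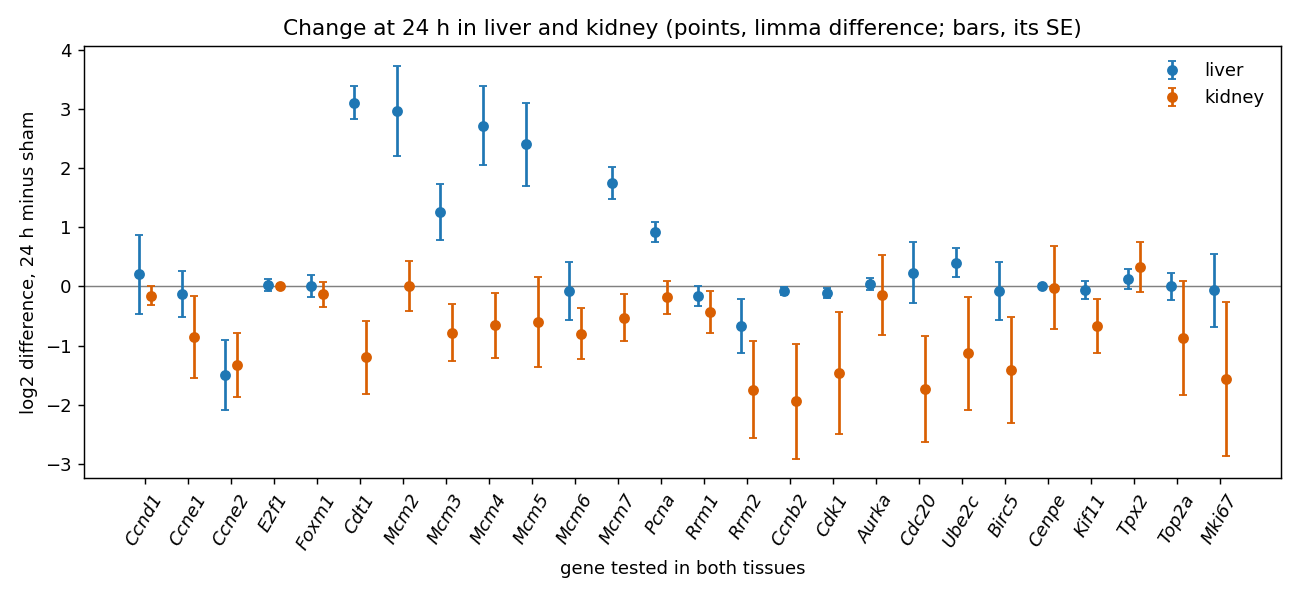
Log2 difference, 24 h minus sham, of the 26 members tested in both tissues, in liver (blue) and kidney (orange), with bars for the limma SE. Cdt1 is at 3.11 in liver, the Mcm genes other than Mcm6 lie above 1 there, and most kidney points lie below 0.

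A wider list of 174 other cell cycle genes, of which 171 were measured, was counted beside the members. In liver 29 of 125 tested rose and 12 fell at 24 h, 18 rose and 2 fell at 48 h, and 30 rose and 16 fell between the times. The shares of all genes given above were 17.9% and 15%, 6.24% and 3.94%, and 14.6% and 13.1%. At 24 h the smallest p-values were those of Ckap2, Ccng1 and Rad1 among rises and of Atr, Mcm10 and Tfdp2 among falls. Ckap2 read 4.18 in every sham and 48 h liver array, a background reading without spread. Ccng1 (cyclin G1, a p53 target) rose by 2.78 (adjusted p = 9.59e-05), and Mcm10, a replication factor that works with the MCM helicase, fell by 2.93 (adjusted p = 8.61e-04). By the probe set used, Mcm10 thus moved opposite to Mcm2, Mcm4, Mcm5 and Mcm7, while Mcm3 and Mcm6 were not called. That set had a mean of 11.46 in sham liver, above all 6 MCM subunits there, and 5.08 in sham kidney. Other probe sets of Mcm10 were not compared. Atr, the kinase that senses stalled forks, fell by 2.18 and was 2.65 higher at 48 h than at 24 h (adjusted p = 7.67e-04 and 5.60e-04).

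At 48 h against sham in liver the smallest p-values among rises were those of Rad1, Ccng2 and Spc25. Spc25, a kinetochore protein, rose by 2.25 (adjusted p = 0.0132), and Ccng2 by 1.14 (adjusted p = 0.00941). The 2 falls were Tfdp2, a partner of E2F factors, at -1.88 (adjusted p = 0.0311), and Smc4, a condensin subunit, at -2.03 (adjusted p = 0.026). Between the times Ect2, which directs cytokinesis, rose at least 7.59-fold (adjusted p = 0.00191). Ccng2 and Atr also rose, while Ckap2, Ccng1 and Cdc25a fell. The 48 h readings of Ckap2 and Cdc25a were all background.

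Among inhibitors, Cdkn1a (p21, which blocks Cdk2) read 6.12, 6.36 and 6.25 in sham livers, 13.40, 13.37 and 13.44 at 24 h, and 10.86, 10.92 and 7.82 at 48 h. It rose by 7.16 ± 0.767 at 24 h (adjusted p = 7.74e-04) and by 3.62 at 48 h (adjusted p = 0.0298). So the same livers that had higher Cdt1 and MCM levels at 24 h had the highest Cdkn1a. In kidney it read 6.39, 6.45 and 6.36 in sham, 7.33, 7.23 and 6.78 at 24 h, and 6.40, 6.45 and 6.87 at 48 h (0.72 at 24 h, adjusted p = 0.0669). The kidney response was lower by 6.44 at 24 h (adjusted p = 5.79e-05). Cdkn2c (p18) was higher at 48 h than at 24 h in liver by 1.52 (adjusted p = 0.0113). Cdkn1b and Cdkn1c were not called in any of the 8 comparisons.

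In kidney 1 of 130 wider genes tested rose and 1 fell at 24 h (Ccnd3 by 0.59, adjusted p = 0.038, and Pole2 among background readings), 2 rose at 48 h (Fen1 by 0.53, adjusted p = 0.0353, and Pole near the floor), and Pole rose between the times. Fen1 is the flap nuclease of the lagging strand, and Ccnd3 is cyclin D3. Ect2 read 7.41, 7.48 and 6.67 in sham kidneys, 4.12, 5.18 and 5.14 at 24 h, and 9.47, 7.59 and 6.91 at 48 h, again lowest at 24 h and highest in array A of 48 h. Between tissues the kidney response was higher for 10 and lower for 24 of 132 wider genes at 24 h, and for 5 and 14 at 48 h, against 13.8%, 16.5%, 4.68% and 8.41% of all genes. At 24 h the smallest p-values were those of Atr, Tfdp2 and Anapc1 among the higher and of Ccng1, Cdk7 and Cdk4 among the lower, Ccng1 at -2.53 (adjusted p = 6.05e-07). At 48 h they were those of Pole, Tfdp2 and Fen1 among the higher and of Ccnh, Spc25 and Cdk7 among the lower, Spc25 at -2.52 (adjusted p = 0.00236).

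Of the 37 members, 12 were called in at least 1 of the 8 comparisons and 25 in none. Among these 25, 7 did not pass the filter and were not tested in any comparison: Cdc6, Tyms, Plk1, Bub1, Bub1b, Ttk and Kif20a. The 25 were 4 of the G1 genes (Ccnd1, Ccne1, E2f1 and Foxm1), 2 of licensing (Cdc6 and Mcm6), 2 of the fork (Rrm2 and Tyms), 5 later cyclins and kinases, 4 checkpoint and anaphase genes and 8 spindle and chromosome genes. Ccne1 (cyclin E1) ran from 5.65 to 7.34 in liver and from 2.94 to 5.65 in kidney, without a gap between liver groups. E2f1 and Foxm1, transcription factors of S phase and of G2, had background readings in most arrays of both tissues, E2f1 from 4.42 to 4.81 and Foxm1 from 2.21 to 3.39. Tpx2, which activates Aurka, ran from 2.61 to 4.62, and Cenpe, a kinetochore motor, from 2.46 to 5.08, highest in array A of kidney at 48 h.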

How the data were processed

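RNA of whole liver and kidney was profiled on Affymetrix mouse arrays, 18 in all. The deposited table holds 1 log2 value per probe set and array, which the authors computed with gcRMA, per the submitters' processing notes. Its version is not given in the sources used here. gcRMA models background by probe sequence and normalizes between arrays, and weak probe sets in this table have readings that repeat exactly between arrays. Of 45101 probe sets, 64 control sets were left out and 34945 were named for 1 gene.

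Groups were taken from the labels. limma (3.58.1, R 4.3.3) with an intensity trend was fitted on the 9 arrays of a tissue, and on all 18 for differences between tissues, as two-sided tests. A gene was called at a Benjamini-Hochberg adjusted p under 0.05. Genes above percentile 50 of the array in at least 3 arrays were tested. The rank product used 100 permutations. Alternatives were filters, probe set choice, normalization, variance options, the array letter as a block, other sets of arrays and leaving out each array. Limma and the rank product were tested on simulated data. Motifs were counted in RefSeq windows (GRCm38.p6) with Python 3.11.15.

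The members, the wider list, the marker lists and the tests were chosen with earlier results of these data known. Members called in any comparison, and the uncalled member of each role with the highest mean, were given array by array, and of the wider list the 3 called genes with the smallest p in each direction and 4 inhibitors were named. Other members given array by array were chosen after their values were seen.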

Additional observations from a re-analysis of the deposited data

Results flagged for a closer look

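For 8 results the response differed between the tissues in a test of that difference (limma, 18 arrays, Benjamini-Hochberg adjusted). At 24 h the kidney response minus the liver response was -4.31 for Cdt1, -2.96 for Mcm2, -2.04 for Mcm3, -3.37 for Mcm4, -3.00 for Mcm5, -2.27 for Mcm7 and -1.10 for Pcna on the log2 scale, with adjusted p-values of 3.46e-04, 0.0218, 0.0379, 0.00993, 0.0439, 0.00317 and 0.0223. The difference was lost for Mcm5 in 14 and for Mcm3 in 10 of 27 alternatives, and a further Mcm3 set moved by 0.18 in liver and 0.20 in kidney. At 48 h it was 3.02 for Nusap1 (adjusted p = 0.0157), whose liver readings were all background. It thus rests on the kidney arrays, where Nusap1 was not called at 48 h against sham. The liver readings had almost no spread, which lowers the SE of the fit of 18 arrays. In each of the 7 genes at 24 h the liver arrays were higher than sham, and the sham kidneys ranged more widely than the 24 h kidneys.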

How the results depend on the processing

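Of 528 comparisons of the 23 calls of members with an alternative, 416 held, 112 lost the call and 0 reversed. 6 calls held in every alternative: Cdt1 at 24 h and from 24 h to 48 h in liver, and the tissue differences of Cdt1, Mcm4 and Mcm7 at 24 h and of Nusap1 at 48 h. For Nusap1 all liver readings were background, so its tissue difference of 3.02 was that of kidney at 48 h against sham. That difference was not called in the fit of the kidney arrays. The liver readings without spread lower the SE in every fit of both tissues, so holding throughout does not make this call firm. In liver at 24 h the rank product called 4 members (4.96% of all genes, both directions) and lost Mcm7 and Pcna. In liver at 48 h against sham, 14 members were called with array weights (39.2% of all genes were). With only the 6 arrays compared 1 was called (6.37%), and by rank product 1 (2.33%). From 24 h to 48 h in liver, 3 were called without a filter (15.1% of all genes) and 8 with array weights (38%). With all 18 arrays 3 were called (38%), and by rank product 1 (3.9%). In kidney the rank product called 7 at 24 h, 10 at 48 h against sham and 13 from 24 h to 48 h. The shares of all genes in both directions were 1.37%, 1.77% and 1.22%. At 48 h against sham in kidney, 1 member each was called with a filter at 5, with median centring and with all 18 arrays. The shares of all genes were 5.64%, 4.06% and 1.59%. From 24 h to 48 h, 0 were called without a filter (0.352% of all genes), with array weights (2.03%) or with the 6 arrays compared (0.202%). With the filter at 5, 3 were called (2.92%), with median centring 4 (2.28%) and with all 18 arrays 9 (1.34%). The tissue difference at 48 h gave 2 with the filter at 5 (17.3% of all genes) and 8 with array weights (36.4%). The cause was not tested.

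With 1 array left out in turn, the counts ran from 3 to 7 (liver 24 h), 2 to 5 (liver 48 h), 2 to 6 (liver between times), 0 to 1 (kidney 24 h, the 1 being without sham array C), 0 to 0 (kidney 48 h), 0 to 0 (kidney between times), 3 to 8 and 1 to 3 (tissue differences at 24 h and 48 h). The shares of all genes called also moved. They ran from 23.6% to 38.8%, 3.73% to 13.3% and 21.5% to 28.9% in the 3 liver comparisons. In kidney they ran from 0.125% to 5.6%, 0.242% to 3.92% and 0.00836% to 1.36%. For the tissue differences they ran from 25.5% to 35.8% and 9.16% to 16.8%. For the rank product in kidney, an alternative chosen after seeing the data, the counts of members ran from 0 to 9, 1 to 8 and 8 to 13.

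With the array letter as a replicate block, 5 members were called in liver at 24 h (27.9% of all genes), 2 at 48 h (5.01%) and 3 between the times (22.7%). In kidney 0 were called between the times (0.0333%), and 2 for the tissue difference at 48 h (12.4%). Same-letter arrays did not deviate together throughout: correlations of deviations ran from -0.147 to 0.097 in liver (0 of 9 over 0.1), -0.114 to 0.265 in kidney (1 of 9) and -0.096 to 0.361 between tissues (3 of 9, among them sham A and sham C at 0.334 and 0.361). Between the sham organs, liver A with kidney C gave -0.347 and liver C with kidney A gave -0.330. As not every pair lay over 0.1, the letters were not treated as pairs, and the main tissue tests took liver and kidney arrays as independent. Whether a letter marks the same mouse in both organs was not settled. Weak signal limits the rest, since 305 of 666 readings lay within 1 of the floor.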
